A study of Mus musculus with 16 samples.

Results

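The genes described here encode the proteins of the mitochondrial ribosome. They were taken as the rows of a read count table whose symbol begins with Mrpl or Mrps followed by a digit, which gave 77 of the 13701 genes, 48 named Mrpl and 29 named Mrps. All 77 had enough reads to be tested in every comparison, with 22 to 2066 reads in any one library.

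Total RNA was sequenced from frozen bulk tissue of male C57BL/6J mice, an inbred laboratory strain, aged 12 to 14 weeks and taken 7 days after an adeno-associated virus. The 4 groups of 4 libraries were liver labelled AAV-DJ8-TGB-Yap1S5A, liver labelled with the matching green fluorescent protein vector (AAV-DJ8-TGB-EGFP, GFP in what follows), quadriceps muscle labelled AAV-DJ8-TGB-Yap1S5A and quadriceps labelled with the GFP vector. In Yap1S5A, serines of the coactivator Yap1 that Hippo kinases phosphorylate are alanines, which is known to keep the protein active, and the series calls the expression hepatic. One treatment field speaks of liver resection or a sham operation and so disagrees with titles, genotypes and design; the groups used here are those of the titles. The vector's promoter is given only by the letters TGB, and the mice of both groups kept their own Yap1 gene.

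The targeted gene went against the label in liver. Yap1 stood at 41.8, 46.3, 48.4 and 50.2 CPM (read counts put on a common library size by the trimmed mean of M-values, TMM) in the Yap1S5A-labelled livers, against 67.5, 67.9, 64.0 and 76.3 CPM in the GFP-labelled livers, and it was lower by the test used here (log2 fold change -0.55 ± 0.12 SE, edgeR adjusted p = 0.00089). In quadriceps it stood at 77.5, 84.5, 94.2 and 78.1 CPM in the Yap1S5A-labelled libraries, against 76.4, 72.4, 64.04 and 67.8 CPM in the GFP-labelled ones, higher in all 4 but not called (0.26 ± 0.10, edgeR adjusted p = 0.11). Whether reads of the vector's Yap1S5A were counted at this gene was not tested. Groups are therefore named by their labels throughout, and every direction given for liver is a direction between labels. Hepatocyte markers summed to 130300 to 148100 CPM in the Yap1S5A-labelled livers and to 138500 to 155700 CPM in the GFP-labelled livers, and myofibre markers to 166000 to 202700 CPM in the Yap1S5A-labelled quadriceps and to 223700 to 253900 CPM in the GFP-labelled quadriceps, so each tissue carried the markers of its label.

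Mitochondria keep their own ribosome, which translates the few messages encoded by mitochondrial DNA, all of them core subunits of the respiratory chain and the ATP synthase. Its ribosomal RNAs come from mitochondrial DNA, while every one of its proteins is encoded in the nucleus, made in the cytosol and imported. The large subunit (Mrpl genes) holds the peptidyl transferase centre and the exit tunnel, and the small subunit (Mrps genes) holds the decoding site. Some of these proteins have a counterpart in the bacterial ribosome and others arose with mitochondria. By this division the 77 genes held 30 large subunit proteins with a bacterial homologue, 20 large subunit proteins without one, 16 small subunit proteins with a homologue and 10 without. The last, Mrps36, carries a ribosomal symbol but is known as a subunit of the oxoglutarate dehydrogenase complex. Liver and skeletal muscle are both rich in mitochondria.

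In liver, messages for the mitochondrial ribosome were far less abundant under the Yap1S5A label. Of the 77 genes, 72 fell and 1, Mrpl18, rose in Yap1S5A-labelled over GFP-labelled livers, and 4 were not called (edgeR's quasi-likelihood test with Benjamini-Hochberg adjustment over all 12818 genes tested, threshold 0.05). Among all genes tested 30.3% were called lower and 33.3% higher. The median log2 fold change was -1.16 over the 77 genes, against 0.03 over all genes tested, and 45 of the 77 were lower by more than 1 log2 unit. The values of all 4 Yap1S5A-labelled livers lay below those of all 4 GFP-labelled livers for 69 of the 77, where 27.3% of all genes were separated in that direction, and no member was separated upwards. The summed level of the 77 genes was 948, 990, 969 and 997 CPM in the Yap1S5A-labelled livers, against 2079, 1978, 2131 and 1846 CPM in the GFP-labelled livers. The highest of the Yap1S5A-labelled livers was thus well below the lowest of the GFP-labelled ones, and the mean of the Yap1S5A-labelled livers was 48.6% of the other. Without TMM scaling the gap was smaller. The 77 genes held 0.120 to 0.132% of all counts in the Yap1S5A-labelled livers and 0.174 to 0.199% in the GFP-labelled livers. The quadriceps of both labels stood close to the GFP-labelled livers, at 2084, 2187, 2101 and 2519 CPM in the Yap1S5A-labelled and 2079, 2369, 2462 and 2460 CPM in the GFP-labelled libraries. In bulk tissue, fewer cells of a type and less RNA per cell cannot be told apart, and the sample labels do not say that replicates are separate animals, although an accompanying sheet gives each an ID of its own. If they are not, the p-values measure technical spread.

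**Figure D1:**
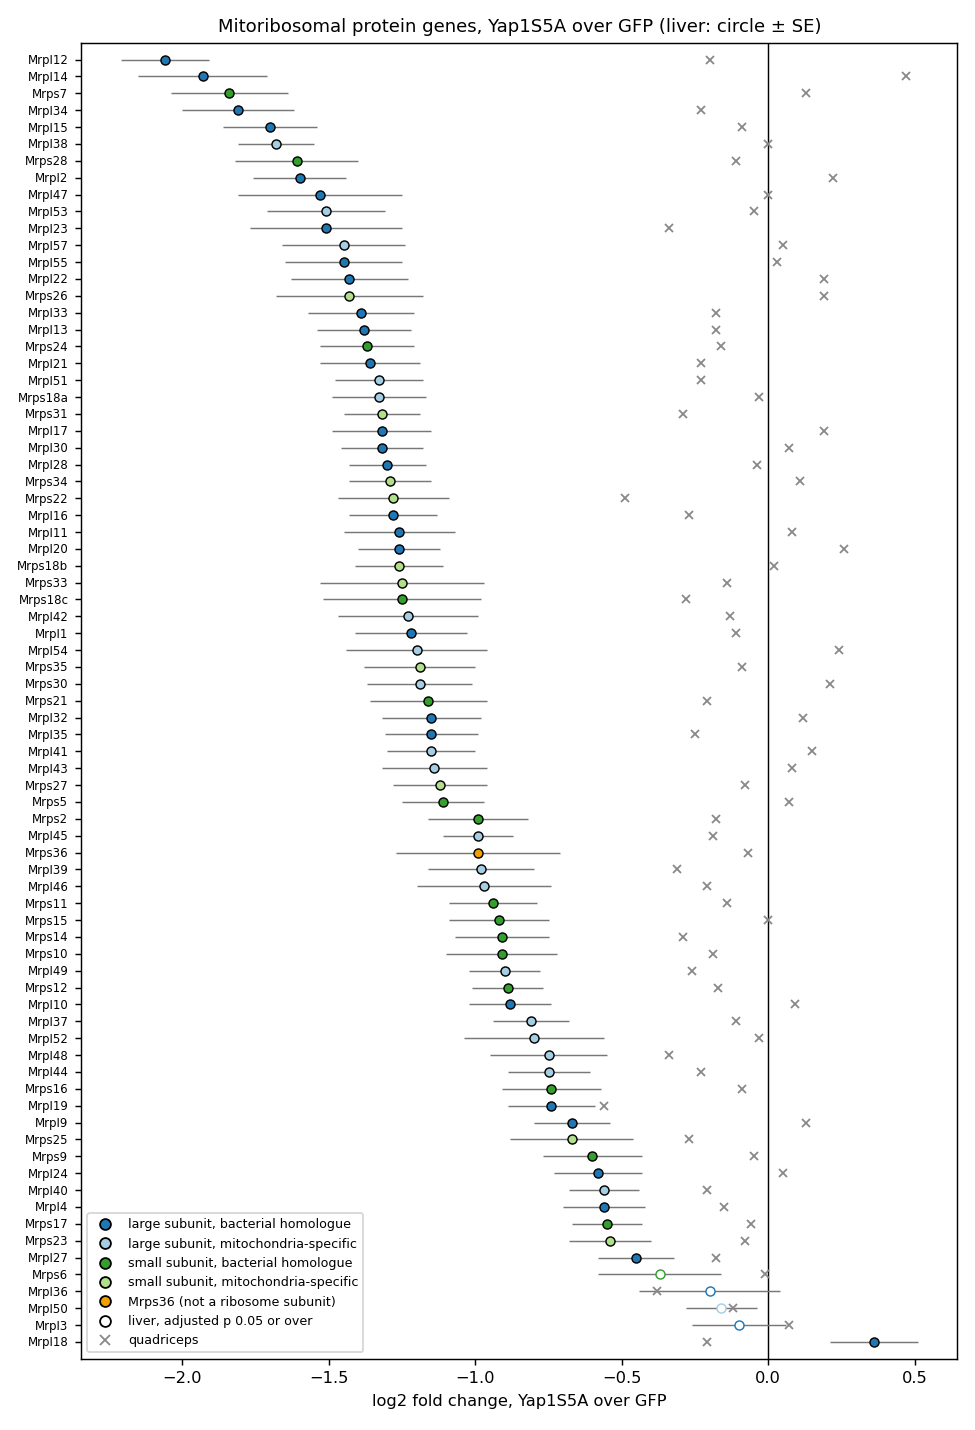
Log2 fold change of each of the 77 genes, Yap1S5A-labelled over GFP-labelled, ordered by the change in liver (circles with SE, n = 4 libraries a group, filled where the edgeR adjusted p was under 0.05) with the change in quadriceps as crosses. Liver values run down to -2.06 for Mrpl12 and only Mrpl18 lies above 0, while the quadriceps values run from -0.56 to 0.47; colours give the subunit and whether a bacterial homologue exists.

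The large subunit held the greatest falls. Mrpl12 (chr11:120484669-120488754, mm10, plus strand, 5 exon segments) encodes the protein of the flexible stalk that recruits translation factors, and in human cells it has also been reported to bind the mitochondrial RNA polymerase. It stood at 17.8, 20.6, 21.8 and 19.5 CPM in the Yap1S5A-labelled livers, against 80.8, 86.2, 102.3 and 64.7 CPM in the GFP-labelled livers, a log2 fold change of -2.06 ± 0.15 (SE, edgeR adjusted p = 3.7e-08). The groups were far apart, and the 4 Yap1S5A-labelled values lay closer together than the GFP-labelled ones. The antisense gene Gm16755 overlaps 21.1% of the exonic length of Mrpl12, and Gm11574 overlaps 14.3% of that of Mrpl10. Mrpl10, which anchors the stalk to the body of the subunit, fell by less, at 32.03, 25.6, 26.6 and 24.9 CPM against 55.0, 52.2, 43.0 and 52.6 CPM (log2 fold change -0.88 ± 0.14, adjusted p = 5.8e-05), so both parts of the stalk fell without overlap between labels.

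Mrpl14 (chr17:45686372-45698495, plus strand, 3 exon segments) lies at the interface to the small subunit, where the human assembly factor MALSU1 binds it. It was at 5.65, 9.64, 7.30 and 11.5 CPM in the Yap1S5A-labelled livers and 35.4, 29.9, 42.1 and 23.4 CPM in the GFP-labelled livers (log2 fold change -1.93 ± 0.22, edgeR adjusted p = 4.1e-06). Both groups varied about 2-fold within themselves and did not meet. The antisense gene Tmem63b overlaps 9.41% of the exonic length of Mrpl14. Mrpl15 (chr1:4773200-4785726, minus strand), a core protein of the bacterial type, was at 9.24, 10.9, 15 and 12.7 CPM against 36.5, 44.3, 40.2 and 34.9 CPM (log2 fold change -1.70 ± 0.16, adjusted p = 4.8e-07). Mrpl34, a short protein of the same type, was at 6.58, 5.18, 5.42 and 6.65 CPM against 19.7, 16.6, 28.7 and 19.5 CPM (log2 fold change -1.81 ± 0.19, adjusted p = 1.1e-06). For both, the lowest GFP-labelled liver was more than 2-fold above the highest Yap1S5A-labelled one. Mrpl38, which sits at the central protuberance and has no bacterial homologue, was at 18.7, 25.4, 19.4 and 23.3 CPM against 73.5, 71.3, 66.4 and 69.0 CPM (log2 fold change -1.68 ± 0.13, adjusted p = 6.3e-08), with little spread among the GFP-labelled livers.

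Within the large subunit, 27 of 30 proteins with a bacterial homologue fell (median -1.29) and 19 of 20 without one fell (median -1.07). Among all genes tested 30.3% were called lower and 33.3% higher. Those 30 genes summed to 428 ± 3.58 CPM in the Yap1S5A-labelled livers and 876 ± 71.2 CPM in the GFP-labelled livers (SD, n = 4 each). The other 20 summed to 263 ± 12.3 and 530 ± 23.3 CPM in the same order of labels. Nearly every gene of both classes thus stood lower, by similar amounts.

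The small subunit followed. All 10 of its proteins without a bacterial homologue fell (median -1.25), as did 15 of the 16 with one (median -0.93). Again 30.3% of all genes tested were called lower and 33.3% higher. Mrps7 (chr11:115604151-115607624, plus strand), a primary binder of the ribosomal RNA in the head of the subunit, changed most, with 9.48, 16.5, 14.2 and 21.2 CPM in the Yap1S5A-labelled livers against 63.9, 54.3, 58.5 and 45.1 CPM in the GFP-labelled livers (log2 fold change -1.84 ± 0.20, edgeR adjusted p = 2.5e-06). The Yap1S5A-labelled values spread over more than 2-fold, all below the lowest GFP-labelled value. Mrps12, which reaches into the decoding centre, was lower by 0.89 on the log2 scale (-0.89 ± 0.12, adjusted p = 2e-05). The 3 relatives of the bacterial S18 protein, Mrps18a in the large subunit and Mrps18b and Mrps18c in the small one, all fell, with log2 fold changes of -1.33 ± 0.16, -1.26 ± 0.15 and -1.25 ± 0.27, and only Mrps18c is counted here among the proteins of the bacterial type. An antisense gene covers 60.0% of the exonic length of Mrps18b and a same-strand gene 32.7% of that of Mrps18c, and the strand setting of the counting is not given in the sources used here. Mrps36 stood at 1.42 ± 0.227 CPM in the Yap1S5A-labelled livers and 2.87 ± 0.720 CPM in the GFP-labelled livers (SD, n = 4 each; log2 fold change -0.99 ± 0.28, adjusted p = 0.0068); 3 named pseudogenes of it are annotated, so its reads are uncertain.

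**Figure D2:**
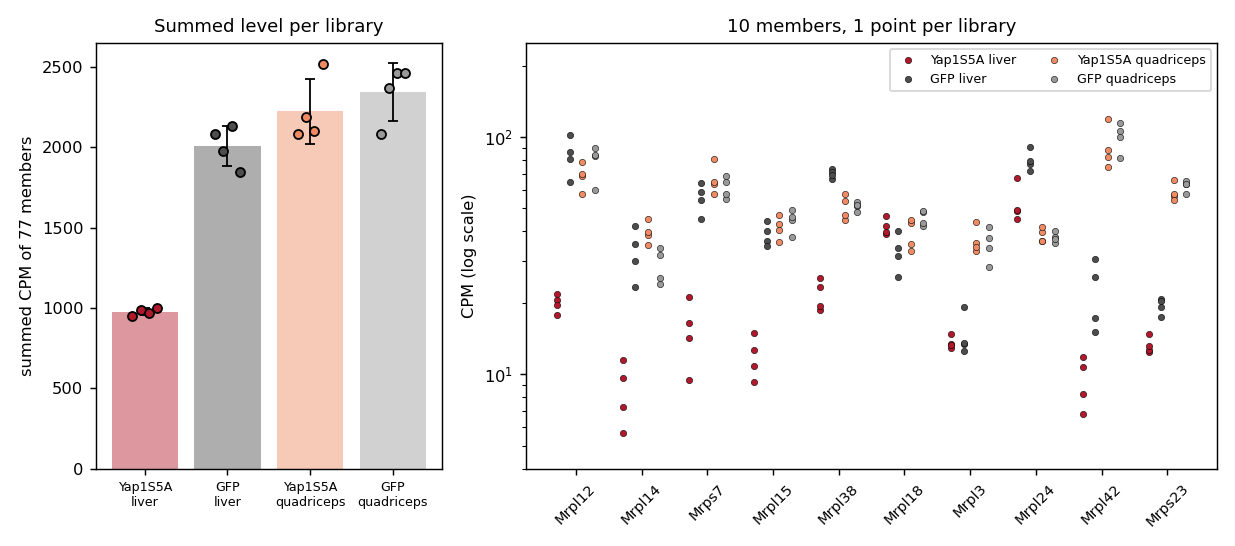
Left, summed CPM of the 77 genes in each library (points) with the mean and SD of each group (bars); right, CPM of 10 members in every library on a log scale, with Yap1S5A-labelled and GFP-labelled liver and then quadriceps side by side. The Yap1S5A-labelled livers sit between 948 and 997 CPM, below all 12 other libraries.

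Few members departed from this pattern. Mrpl18 (chr17:12911355-12916091, minus strand, 4 exon segments), a protein of the central protuberance, stood at 39.0, 39.9, 42.1 and 46.6 CPM in the Yap1S5A-labelled livers against 34.1, 31.4, 40.3 and 25.8 CPM in the GFP-labelled livers, and it rose (log2 fold change 0.36 ± 0.15, edgeR adjusted p = 0.043). The groups overlapped, with the highest GFP-labelled value above the lowest 2 Yap1S5A-labelled ones. The call was lost when any library other than GFP-labelled liver replicate 3 was left out (adjusted p 0.057 to 0.15). Its exons overlap those of the antisense gene Tcp1 over 12.9% of their length, and Tcp1 was called lower (log2 fold change -0.69). Mrpl3, a core protein near the peptidyl transferase centre, was at 12.97, 14.8, 13.4 and 13.4 CPM against 13.4, 19.2, 12.6 and 13.5 CPM (log2 fold change -0.10 ± 0.16, adjusted p = 0.62). Apart from 1 high GFP-labelled library, its values were nearly level. Mrpl50, a large subunit protein without a bacterial homologue, was at 38.1, 33.5, 31.99 and 31.9 CPM against 38.3, 40.5, 38.4 and 35.2 CPM (log2 fold change -0.16 ± 0.12, adjusted p = 0.28). The other 2 genes that were not called were Mrpl36 (-0.20 ± 0.24) and Mrps6 (-0.37 ± 0.21), both of the bacterial type. A missed threshold does not show that these 4 genes were equal between labels.

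The size of the fall varied more among members than the error of each: the log2 fold changes had an SD of 0.44 over the 77 genes beside a median SE of 0.17. Members are mostly short genes, with a median exonic length of 1053 bases (quartiles 780 and 1590, range 407 to 6712) against 2910 over the table, and in these livers the change went with length over all genes. Ranked against exonic length, the fold changes gave a Spearman's rho of 0.32 across all genes tested and 0.22 across the 77, as a description across genes of the same 8 libraries. Set beside other genes of like length, the members still stood lower. Below 780 bases the median was -1.25 over 19 members and -0.94 over 407 other genes. From 780 to 1053 bases it was -1.31 over 18 members and -0.65 over 477 others, and from there to 1590 bases -1.13 over 20 members and -0.44 over 1376 others. From 1590 bases up, the members' median was -0.99 (n = 20) and that of 10481 other genes was 0.14. The gap between members and others was thus smallest among the shortest genes and widest among the longest.

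**Figure D3:**
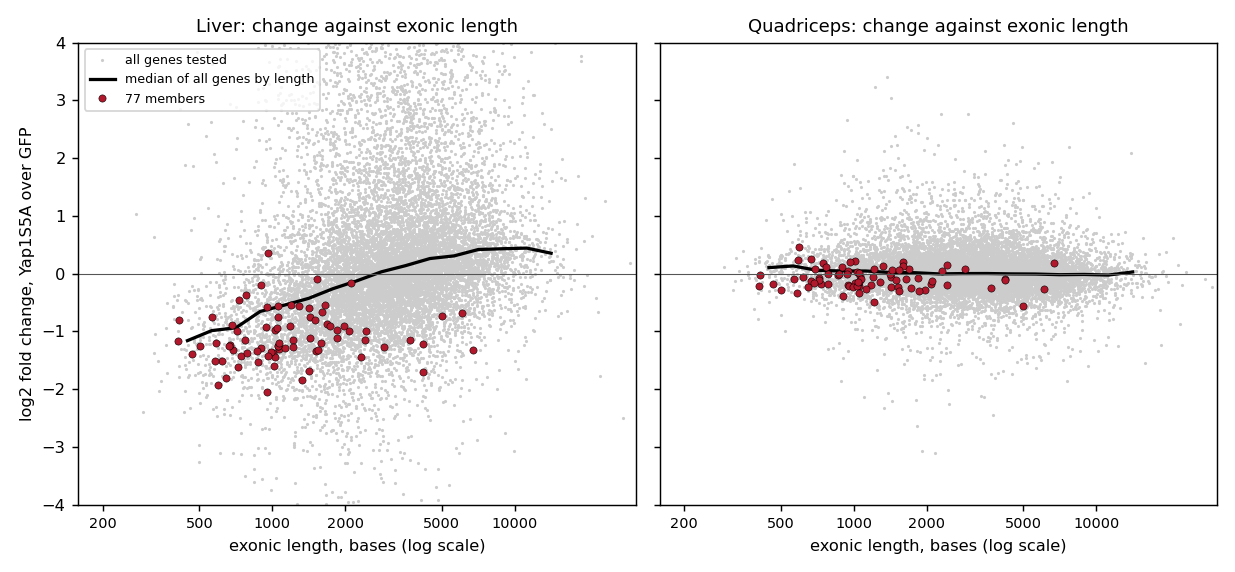
Log2 fold change, Yap1S5A-labelled over GFP-labelled, against exonic length on a log scale in liver (left) and quadriceps (right), for all genes tested (grey), their median by length (line) and the 77 members (red); genes past the axis limits are not drawn. In liver the line climbs with length and most members lie under it, and in quadriceps both lie near 0.

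When the trend of counts with length was removed from each library, 47 of the 77 were called lower and 2 higher, where 29.9% of all genes were called lower and 30.6% higher, and the median was -0.61 against -0.02 over all genes tested. All 47 were also among the 72 lower without this step. The falls of Mrpl15 (-1.95, edgeR adjusted p = 1.5e-07), Mrps7 (-1.37, 1.2e-05), Mrpl12 (-1.36, 4.8e-07), Mrpl38 (-1.25, 7.8e-07) and Mrpl14 (-0.99, 0.00013) were still called. By class, 20 of 30 and 13 of 20 large subunit proteins with and without a bacterial homologue were called lower, and 6 of 16 and 8 of 10 small subunit proteins. Among the calls lost were those of Mrps12 (-0.03), Mrps21 (-0.06), Mrpl42 (-0.35) and Mrps18c (-0.22). Mrpl18 then stood at 1.04 (adjusted p = 3.6e-06), and Mrpl27, lower without this step at -0.45, was called higher at 0.38 (adjusted p = 0.048). With libraries scaled by total counts alone, the median of all genes moved to 0.46, and 58 members were called lower with a median of -0.74, where 16.4% of all genes were called lower and 50.7% higher. The gap between the members' median and that of all genes was -1.19 under that scaling, and 45 of the 77 genes were called lower under every setting tried, left-out libraries included.

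**Figure D4:**
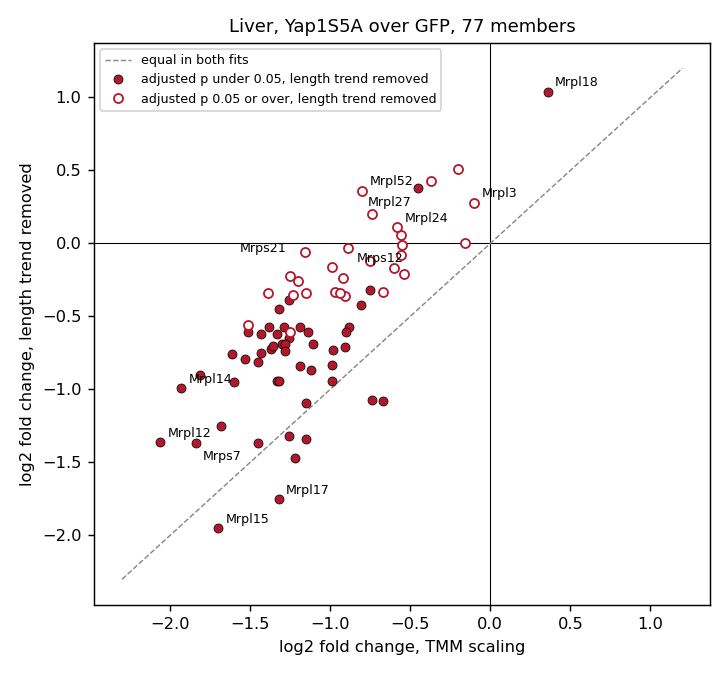
Liver log2 fold change of the 77 members with TMM scaling (horizontal) and with the length trend removed (vertical); filled points had an edgeR adjusted p under 0.05 in the second fit. Most points lie above the dashed line of equal values, and 47 stay called below 0.

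Calls were also counted apart from overlapping genes. Exons of 23 members overlap another annotated gene, 18 of them an antisense one. Of the 54 members with no overlap 51 fell in liver (median -1.22), where 30.3% of all genes tested were called lower and 33.3% higher.

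Genes that work beside the ribosome were read from lists of the same pathway. Of 6 mitoribosome proteins whose symbols lie outside the Mrpl and Mrps names, all 6 fell in the Yap1S5A-labelled livers (median -0.91), among them Aurkaip1 (-1.96, edgeR adjusted p = 1e-05), Gadd45gip1 (-1.46) and Dap3 (-0.96). Of 26 genes for assembly of the ribosome and modification of its RNA, 19 fell and none rose (median -0.73), led by the pseudouridine synthase homologue Rpusd3 (-2.16, 3e-08) and by Mtg1 (-1.68), with Malsu1, the partner of Mrpl14, at -1.54. Rpusd3 averaged 4.13 CPM in Yap1S5A-labelled and 18.6 CPM in GFP-labelled livers. Of 16 translation factors 11 fell (median -0.68), including the initiation factor Mtif3 (-1.39, 1.6e-06) and the elongation factor Tufm (-1.08, 1.7e-05). Of 17 mitochondrial aminoacyl-tRNA synthetases 10 fell (median -0.76), with Aars2 at -1.47 and Yars2 at -1.44. Of 19 genes for transcription and upkeep of mitochondrial DNA 14 fell (median -0.81), including Tfam, which packages that DNA (-0.81, 8e-05). Of 23 genes of the import machinery that brings these proteins in, 20 fell (median -1.09), with Tomm7 at -2.19, Timm13 at -2.02 and Timm23 at -1.92. No gene of these 6 lists was called higher at this scaling, where 30.3% of all genes tested were called lower and 33.3% higher. Those shares of all genes were 16.4% and 50.7% with total counts alone, and 29.9% and 30.6% with the length trend removed. With total counts alone 5, 11, 5, 7, 9 and 15 genes of the 6 lists fell, in the order given, with medians of -0.49, -0.31, -0.25, -0.33, -0.38 and -0.66, and 2 assembly genes and 1 translation factor rose. With the length trend removed 4, 17, 10, 11, 14 and 18 fell, with medians of -0.84, -0.63, -0.52, -0.73, -0.69 and -0.65, and 1 translation factor rose.

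Known regulators of such genes were called in both directions, as were all genes tested (30.3% lower and 33.3% higher). Of 11 transcription factors and coactivators known for nuclear genes of mitochondria, 2 fell and 5 rose in the Yap1S5A-labelled livers (median 0.30), and with the length trend removed 3 fell and 1 rose (median 0.10), while with total counts alone 2 fell and 8 rose (median 0.73). The nuclear receptor Esrra averaged 18.1 CPM in Yap1S5A-labelled and 40.0 CPM in GFP-labelled livers (-1.13, edgeR adjusted p = 0.0006), and the coactivator Ppargc1b averaged 4.51 and 13.6 CPM in the same order (-1.57, 5.9e-05). Myc averaged 25.98 and 7.43 CPM in that order (1.8, 0.00044), and Ppargc1a 15.96 and 10.2 CPM (0.66, 0.01). Nrf1 (0.30, adjusted p = 0.092), Gabpa (0.01) and Yy1 (0.02) were not called.

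Promoter windows from RefSeq (GRCm38.p6, from 250 bases before to 50 bases after the annotated start) were found for 68 of the 77 members. Motifs were searched on both strands, and no matches of different motifs shared bases in a member's window. The palindromic Nrf1 consensus was present in 13 windows (19.1%), against 9.88% of windows of genes in the table and 4.78% of all windows. The ETS motif CCGGAAG, read by the Gabpa complex, was present in 24 (35.3%, against 17% and 9.12%), and the long Yy1 consensus around the letters ATGGC in 5 (7.35%, against 1.55% and 0.699%). The E-box CACGTG was in 5 (7.35%, against 10.1% and 7.24%) and the TEAD motif GGAATG, the site of the factors that Yap1 works with, in 8 (11.8%, against 12.3% and 14.6%). The median liver change was -1.16 with the Nrf1 motif and -1.14 without, and -1.25 with the ETS motif and -0.99 without. A match describes letters only. The windows of the members with the greatest fall in each subunit, of Mrpl14, of the one that rose and of Mrps11, which starts 42 bases from Mrpl46 on the other strand, are given 5′ to 3′ from 250 bases before to 30 after the start, with motif matches in capitals. Mrpl12 lies at chr11:120484387-120484666 (plus strand), Mrpl14 at chr17:45686099-45686378 (plus strand), Mrps7 at chr11:115603890-115604169 (plus strand), Mrpl18 at chr17:12916062-12916341 (minus strand) and Mrps11 at chr7:78782881-78783160 (plus strand).
Mrpl12: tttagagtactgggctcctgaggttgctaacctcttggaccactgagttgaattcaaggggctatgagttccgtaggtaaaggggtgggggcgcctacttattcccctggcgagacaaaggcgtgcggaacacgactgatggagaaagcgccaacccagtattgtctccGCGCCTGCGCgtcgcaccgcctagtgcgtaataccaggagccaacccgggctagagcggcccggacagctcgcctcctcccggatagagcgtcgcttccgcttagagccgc
Mrpl14: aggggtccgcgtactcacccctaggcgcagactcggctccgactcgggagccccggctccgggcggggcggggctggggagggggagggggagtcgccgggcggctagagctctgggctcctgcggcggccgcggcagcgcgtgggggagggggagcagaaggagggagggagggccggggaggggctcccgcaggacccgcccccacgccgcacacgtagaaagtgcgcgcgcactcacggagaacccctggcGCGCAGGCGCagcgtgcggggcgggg
Mrps7: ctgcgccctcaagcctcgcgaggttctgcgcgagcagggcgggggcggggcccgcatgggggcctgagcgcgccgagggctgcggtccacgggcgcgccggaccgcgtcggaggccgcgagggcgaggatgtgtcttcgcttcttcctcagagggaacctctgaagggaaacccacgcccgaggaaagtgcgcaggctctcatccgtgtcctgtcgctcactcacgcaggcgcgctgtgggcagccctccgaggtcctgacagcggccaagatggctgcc
Mrpl18: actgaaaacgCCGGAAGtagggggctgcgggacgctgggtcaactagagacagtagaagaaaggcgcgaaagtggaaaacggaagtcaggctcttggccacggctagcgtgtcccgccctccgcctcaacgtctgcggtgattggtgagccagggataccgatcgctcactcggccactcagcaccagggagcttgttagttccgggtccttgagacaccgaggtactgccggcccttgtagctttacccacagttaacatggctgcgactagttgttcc
Mrps11: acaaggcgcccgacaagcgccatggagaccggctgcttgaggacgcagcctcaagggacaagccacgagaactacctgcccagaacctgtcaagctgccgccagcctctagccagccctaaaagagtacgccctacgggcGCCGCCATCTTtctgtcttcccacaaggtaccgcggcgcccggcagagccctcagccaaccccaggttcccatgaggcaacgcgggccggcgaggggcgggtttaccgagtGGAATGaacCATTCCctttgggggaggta
The capitals mark an Nrf1 match before the start in Mrpl12 and after it in Mrpl14, an ETS match far before the start in Mrpl18, and in Mrps11 a Yy1 match before the start and 2 TEAD matches just after it. The Mrps7 window holds no exact match to these motifs, though the letters atggc occur near its end, as they do near the end of the Mrpl18 window. In all, 26 of the 68 windows hold no match.

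Many members share their start region with a gene on the other strand. Of the 77, 24 (31.2%) had a head-to-head neighbour whose start lay within 1000 bases, against 11.6% of genes in the table. Mrpl46 and Mrps11 are such a pair of members and fell together (-0.97 and -0.94). The antisense gene Mrpl46 overlaps 16.6% of the exonic length of Mrps11, and the strand setting of the counting is not given in the sources used here. Of the other 22 partners, which are no members, 10 fell and 5 rose in the Yap1S5A-labelled livers, with a median of -0.43, where 30.3% of all genes were called lower and 33.3% higher and the median was 0.03. The 10 that fell were Ndufb5, Ptcd2, Peo1, Sars2, Psma2, Fau, Pnpla7, Lrrc46, Tcp1 and Tmem63b. Those with a mitochondrial role gave the pairs Mrpl47 and the complex I subunit Ndufb5 (-1.53 and -1.79), Mrps27 and Ptcd2 (-1.12 and -1.36), Mrpl43 and the helicase gene Peo1 (-1.14 and -1.09), and Mrps12 and the seryl-tRNA synthetase Sars2 (-0.89 and -0.83). The antisense helicase gene, under the symbol Twnk, overlaps 31.7% of the exonic length of Mrpl43. Other pairs went opposite ways. Mrpl57 fell by 1.45 on the log2 scale beside the kinetochore gene Ska3, which rose (edgeR adjusted p = 5.8e-07) to 2.54 ± 0.578 CPM in the Yap1S5A-labelled livers, against 0.0194 ± 0.0388 CPM in the GFP-labelled livers, a level too close to 0 for a fold change. Mrpl51 (-1.33) stands beside the condensin gene Ncapd2 (2.57, 8.5e-09), and Mrpl13 (-1.38) beside the Mdm2-binding gene Mtbp (1.29, 0.00026). These pairs were chosen after their values were seen.

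The makeup of the liver libraries moved with the label. Of all genes tested in liver, 30.3% were called lower and 33.3% higher. All 17 macrophage markers tested rose in the Yap1S5A-labelled livers (median 3.68), and the list summed to 2756 to 3006 CPM in the Yap1S5A-labelled and 156 to 280 CPM in the GFP-labelled livers, and none of the 17 was at 0 in every library of either group. Endothelial markers rose for 9 of 10 (summed 510 to 634 and 253 to 282 CPM in that order) and stellate cell and fibroblast markers for 6 of 10 with 1 lower (862 to 1277 and 185 to 342 CPM). All 12 cell cycle genes rose (262 to 310 and 23.3 to 28.1 CPM). Hepatocyte markers fell for 6 of 10 and rose for none (median -0.73), with summed levels that overlapped between labels. The part of these shifts in the fall of the ribosome genes was not tested. Libraries of the Yap1S5A-labelled livers also held 27.7 to 29.1% of their reads in their 10 most abundant genes, against 19.6 to 25.5% in the GFP-labelled livers, and all 16 libraries held 13817718 to 19215472 counts.

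In quadriceps the same genes stayed near level. Of the 77, 2 fell and 1 rose in the Yap1S5A-labelled over the GFP-labelled muscle, where 4.82% of all 12121 genes tested were called lower and 4.21% higher. The median was -0.09, against 0.00 over all genes (0.03 and 0.12 with total counts alone), and 13 of the 77 members had an unadjusted p under 0.05, as did 23.6% of all genes. The groups did not overlap for 8 members in the lower and 1 in the higher direction (8.65% and 7.04% of all genes). Mrpl19, a large subunit protein of the bacterial type, was at 20.2, 18.7, 20.2 and 16.5 CPM in the Yap1S5A-labelled against 27.2, 29.7, 27.2 and 27.8 CPM in the GFP-labelled quadriceps (log2 fold change -0.56 ± 0.10, edgeR adjusted p = 0.0035). The groups stood well apart, and 39.2% of its exonic length overlaps the antisense gene Gcfc2. Mrps22, a small subunit protein without a bacterial homologue, was at 9.19, 10.8, 7.84 and 11.9 CPM against 15.1, 12.4, 14.5 and 14.4 CPM (-0.49 ± 0.14, adjusted p = 0.045). Mrpl14, one of the largest falls in liver, was higher in muscle, at 38.5, 39.6, 35.03 and 44.95 CPM against 24.1, 25.5, 33.96 and 31.7 CPM (0.47 ± 0.12, adjusted p = 0.029). Both separated without overlap, but each lost its call when some single library was left out (adjusted p up to 0.13 for Mrps22 and 0.082 for Mrpl14), while Mrpl19 kept it throughout. Yap1S5A-labelled quadriceps replicate 4 stood apart, with 29.5% of its reads in its top 10 genes where the other 3 of its group held 36.1 to 39.0%, and without it 5 members were called lower and none higher, where 3.7% of all genes were called lower and 3.32% higher. Cell type markers moved here too. Of 13 macrophage markers tested, 10 rose (median 1.17), and the list summed to 200 to 348 CPM in the Yap1S5A-labelled and 71.3 to 133 CPM in the GFP-labelled quadriceps, with 1 and 2 of its 17 genes at 0 in every library of the group. Of 9 stellate cell and fibroblast markers 4 fell, among them the collagen gene Col3a1 (-1.05, edgeR adjusted p = 0.0012), and 2 rose, Acta2 and Des (summed 5432 to 6001 and 4862 to 5634 CPM in that order). Des had the lowest value of this list in GFP-labelled liver over GFP-labelled quadriceps (log2 fold change -8.51). In muscle the list and its sum therefore do not stand for stellate cells and fibroblasts alone. Of 10 myofibre markers 2 fell, the fast myosin genes Myh4 (-0.98) and Mylpf (-0.55). Of 7 hepatocyte markers tested in quadriceps, 1 rose, Ttr, and 0 fell (median 2.23). The hepatocyte list summed to 23.9 to 169.9 CPM in the Yap1S5A-labelled and 15.3 to 37.45 CPM in the GFP-labelled quadriceps. The part of these marker changes in the muscle values was not tested.

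Tests of the difference between tissues bear on the contrast itself. The change under the Yap1S5A label was lower in liver than in quadriceps for 66 of the 77 genes and higher for 1 (edgeR, interaction of vector and tissue over all 16 libraries), where 22.5% of all 13669 genes tested were called lower and 25.5% higher. This fit did not pair the tissues by animal ID. The median interaction was -1.05, against 0.04 over all genes. It was largest for Mrpl14 (-2.40 ± 0.27, adjusted p = 8.5e-07), whose values moved in opposite directions in the 2 tissues, followed by Mrps7 (-1.97 ± 0.25), Mrpl12 (-1.86 ± 0.21), Mrpl2 (-1.82), Mrpl38 (-1.68 ± 0.16) and Mrps26 (-1.63). Mrpl18 was the one higher call (0.56 ± 0.19, adjusted p = 0.017), and it was lost when Yap1S5A-labelled liver replicate 1 or 2 was left out. Mrpl19, lower in both tissues, showed no called difference between them (-0.19, adjusted p = 0.40). With the length trend removed, 49 were called lower and 1 higher (median -0.68, all genes -0.22), where 30.8% of all genes were called lower and 19% higher.

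Under the GFP vector alone, members were called in both directions between the 2 tissues. This comparison uses the same GFP-labelled libraries as the comparisons above and is given beside them as values only. Its main fit did not pair the tissues by animal ID. Of the 77 genes, 32 were lower and 16 higher in GFP-labelled liver than in GFP-labelled quadriceps, where 38.8% and 40% of all 12865 genes tested were called in these directions, and the median was -0.18, against 0.03 over all genes. Groups did not overlap for 24 lower and 15 higher (37.2% of all genes in each direction). Mrpl42, a large subunit protein without a bacterial homologue, was at 25.6, 30.6, 17.3 and 15.1 CPM in liver against 81.3, 99.96, 105.7 and 115.1 CPM in quadriceps (log2 fold change -2.16 ± 0.21, edgeR adjusted p = 8e-07). Its muscle values were all more than 2-fold above its highest liver value. Mrps36 was next (-1.77 ± 0.23, 2.87 ± 0.720 against 9.90 ± 1.803 CPM, SD, n = 4 each), then the small subunit protein Mrps23 (-1.66), Mrpl3 (-1.25), Mrpl51 (-1.13) and Mrpl54 (-1.04). Mrpl24, which lies near the exit tunnel, went the other way, at 72.1, 77.3, 90.7 and 79.2 CPM in liver against 35.8, 37.8, 37.1 and 40.3 CPM in quadriceps (1.10 ± 0.11, adjusted p = 5.7e-07), again without overlap; 37.4% of its exonic length overlaps the antisense gene Rrnad1. Mrps2 (0.85), Mrpl20 (0.73), Mrps35 (0.70), Mrpl10 (0.69) and Mrpl52 (0.62) were also higher in liver. With upper-quartile scaling, which moved the median of all genes to -0.17, the calls were 42 lower and 10 higher (43.6% and 35.2% of all genes). With the length trend removed they were 40 lower and 10 higher (38.9% and 40.3% of all genes), with a median of -0.35 against 0.04 over all genes.

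Levels between genes were compared per kilobase of exonic length. The median member stood at 8.92 CPM per kb in Yap1S5A-labelled liver, 19.4 in GFP-labelled liver, 20.01 in Yap1S5A-labelled quadriceps and 21.3 in GFP-labelled quadriceps, and the genes of one ribosome spanned a wide range in each. In GFP-labelled liver Mrpl12 was highest (88.0 ± 16.4 CPM per kb, SD, n = 4), followed by Mrpl24 (84.1 ± 8.26), within their spread, and Mrpl28 (64.8 ± 10.2). Mrps25 was lowest in each group, at 1.27 ± 0.220 CPM per kb in GFP-labelled liver, with Mrpl19 (3.49 ± 0.573) and Mrps33 (3.68 ± 1.12) above it and alike within their spread. In GFP-labelled quadriceps Mrpl42 stood highest (151 ± 21.4), above Mrpl12 (83.4 ± 14.0) and Mrps28 (66.1 ± 11.7), and Mrps25 (2.15 ± 0.121), Mrps33 (4.12 ± 1.36) and Mrpl41 (5.10 ± 0.260) lowest. An antisense gene, Nr2c2, covers 75.7% of the exonic length of Mrps25. In Yap1S5A-labelled liver Mrpl12 stood at 21 ± 1.76 CPM per kb and Mrpl24 was highest at 55.6 ± 10.5. Of the 77 genes, 73 had their lowest group mean in the Yap1S5A-labelled livers.

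**Figure D5:**
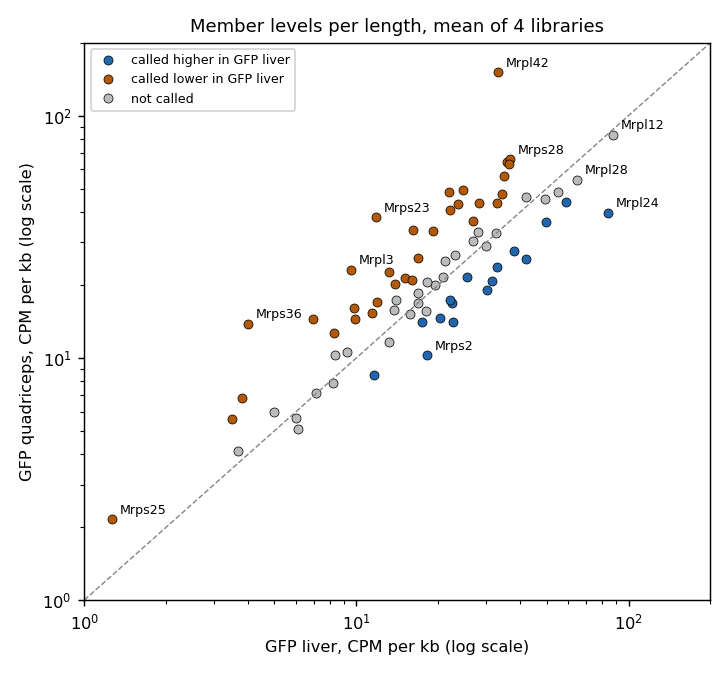
CPM per kb of each of the 77 members in GFP-labelled liver (horizontal) and GFP-labelled quadriceps (vertical), means of 4 libraries on log axes, coloured by the edgeR call of the tissue difference. Mrpl42 lies farthest above the line of equal levels and Mrpl24 below it, and Mrps25 is lowest in both tissues.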

How the data were processed

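Ion Torrent total RNA libraries (QIAzol and RNeasy extraction, Ion Total RNA-Seq kit v2, per the labels' protocols) were made from 16 liver and quadriceps samples. The tools listed, without their roles, in the submitters' processing notes are STAR 2.4.2a, featureCounts, Subread 1.5.0 and FastQC 0.11.5, with the build mm10; the strand setting is not given in the sources used. The authors deposited raw read counts per gene, used for every test, beside scaled values (a signal normalised by the authors, used here only to recover their library sizes for an alternative). In the deposited file, 21 symbols had been turned into dates.

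Counts were filtered (filterByExpr), scaled by TMM and tested with edgeR 4.0.16 (quasi-likelihood, robust; R 4.3.3), with Benjamini-Hochberg adjustment over all genes tested and a threshold of 0.05. Each vector contrast used its own tissue's 8 libraries, the tissue contrast the 8 GFP-labelled libraries and the interaction all 16. CPM were computed with TMM factors over all 16 libraries, and CPM per kb divides by exonic length. Alternatives were other scalings, no filter, DESeq2 1.42.0, a replicate block, leaving out each library, and an offset for the trend of counts with length (loess, span 0.5). Scripts were tested on simulated data. Totals ran from 13817718 to 19215472 counts, and members had 22 to 2066 reads a library, so counting error is largest for the lowest genes.

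Liver and quadriceps with the same number carry the same animal ID in the accompanying sheet, so numbers pair tissues. The main fits left this pairing out, and the replicate block used it in the interaction and the tissue contrast. For these pairs of tissues the deviations were also compared. Their deviations from group means correlated by -0.009 to 0.087. The Yap1S5A-labelled and GFP-labelled samples have different IDs.

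The rule for named members took, in each comparison, up to 6 called falls and 6 called rises with a mean of at least 5 CPM, and up to 6 called members against the majority, then the 3 highest and 3 lowest per kb in each GFP-labelled tissue, the Mrps18 genes, Mrps36 and Mrpl12, and in each pathway list up to 3 called changes each way. Other members, list genes and neighbours named singly were picked after their values were seen. The members and all gene lists were chosen with earlier results of these data known.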

Additional observations from a re-analysis of the deposited data

Results flagged for a closer look

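Of 128 groups of 4 values examined, those of 31 named members and of the summed level of all 77, 4 held a sample far from the other 3, where about 1 in 20 such groups would by chance. Mrpl3 was at 19.2 CPM in GFP-labelled liver replicate 2, where the other 3 were at 12.6 to 13.5 CPM. Mrps18b was at 17.3 CPM in GFP-labelled liver replicate 3, beside 21.1 to 21.8 CPM. Mrps28 was at 35.1 CPM in GFP-labelled quadriceps replicate 1, beside 51.3 to 52.7 CPM, and Mrpl20 at 16.2 CPM in GFP-labelled quadriceps replicate 2, beside 17.2 to 17.3 CPM.

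The change under the Yap1S5A label differed between liver and quadriceps, by the edgeR interaction test, for 27 of the 31 named members. Of all genes tested, 22.5% were called lower and 25.5% higher. Many of these members were named because they were called in this test or in comparisons that share its libraries. A high count among them was thus partly fixed beforehand and is no result of its own. Among large subunit genes the interaction, on the log2 scale, was -2.40 for Mrpl14, -1.86 for Mrpl12, -1.82 for Mrpl2, -1.68 for Mrpl38, -1.61 for Mrpl15 and -1.58 for Mrpl34. It was -1.52 for Mrpl20, -1.44 for Mrpl54, -1.30 for Mrpl41, -1.26 for Mrpl28, -1.10 for both Mrpl42 and Mrpl51, -0.97 for Mrpl10 and -0.63 for Mrpl24. The large subunit gene Mrps18a stood at -1.31, and Mrpl18 was the one positive value at 0.56. Among small subunit genes it was -1.97 for Mrps7, -1.63 for Mrps26, -1.5 for Mrps28, -1.28 for Mrps18b, -1.11 for Mrps35, -1.10 for Mrps33, -0.96 for Mrps18c, -0.81 for Mrps2, -0.78 for Mrps22 and -0.46 for Mrps23. Mrps36 had -0.92.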

How the results depend on the processing

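In liver, removing the length trend left 47 members lower and 2 higher (median -0.61), and members with a value below 0 went from 76 to 68. Among members called lower before, Mrpl24 (0.11, edgeR adjusted p = 0.59), Mrpl52 (0.36, 0.18), Mrps16 (0.2, 0.34) and Mrpl40 (0.06, 0.69) reversed without being called. Mrpl27 reversed and was called higher. Mrpl36 (0.51), Mrps6 (0.43) and Mrpl3 (0.28), called in neither fit, also moved above 0. Total counts alone gave a median of -0.74. No member was called higher in liver (0) with RLE factors, no filter, DESeq2, the replicate block or the authors' deposited library sizes, the last added after seeing the data; Mrpl18 then had edgeR or DESeq2 adjusted p of 0.051 to 0.071. In quadriceps 1 member was called lower with total counts alone, 4 with the length trend removed and 1 with the replicate block. In a vector contrast that block pairs different animal IDs by number only. Of all 12121 genes tested, 254, 692 and 402 were called lower in these settings, in the order given. The interaction median was -0.74 with total counts alone and -0.68 with the length trend removed. Between GFP-labelled tissues, upper-quartile factors gave 42 lower and 10 higher (median -0.38) and the length trend removed 40 lower and 10 higher (median -0.35). Median levels with total counts alone were 11.4 CPM per kb in Yap1S5A-labelled liver and 18.6 in GFP-labelled quadriceps. With the replicate block, which here pairs tissues by animal ID, the interaction gave 64 lower and 1 higher. Of all 13669 genes tested, 2940 were called lower and 3327 higher in that fit. The tissue contrast with this block gave 31 lower and 15 higher, where 4927 and 5044 of all 12865 genes were called in these directions. The causes were not tested.

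Leaving out 1 library at a time gave 72 to 73 lower, 0 to 1 higher and medians of -1.24 to -1.12 in liver; 1 to 5 lower, 0 to 1 higher and -0.17 to -0.07 in quadriceps; 57 to 69 lower, 0 to 1 higher and -1.23 to -0.97 for the interaction; and 27 to 33 lower, 11 to 17 higher and -0.26 to -0.12 between GFP-labelled tissues. For the 31 members named by rule, 2140 alternative values kept their call or lack of one, 74 lost a call, 16 gained one and 2 reversed. These 31 leave out Mrpl27, Mrps16 and Mrpl40. Values not called could change sign without being counted as reversed, as for Mrpl3 in liver. Exonic lengths from the annotation equal those deposited.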
